A study of Mus musculus with 6 samples.

Results

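Vascular endothelial growth factors (VEGFs) and angiopoietins, with the receptors that read them on endothelial cells, were followed in the mouse uterus after neonatal exposure to diethylstilbestrol (DES), a synthetic estrogen. With earlier results of these data known, the 10 genes were chosen by name. They were the ligands Vegfa, Vegfb and Vegfc, the VEGF receptors Flt1, Kdr and Flt4, the angiopoietin receptor Tek, its ligands Angpt1 and Angpt2, and Gpihbp1, the capillary protein that carries lipoprotein lipase to the vessel lumen. All 10 were present among the 24077 genes of the single-cell table and the 30828 genes of the spatial tables.

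CD-1 mice received corn oil (CO, 0 mg/kg) or DES (1 mg/kg per day) under the skin in the days after birth, and uteri were taken at 12 months. Single cells came from 1 CO and 1 DES library, each pooled from a few mice with fewer in the CO pool than in the DES pool, and spatial transcriptomes came from 2 sections per treatment, called A and B, each from its own mouse. CO mice were taken in estrus to match the persistent estrus of the DES mice, so the stage was alike but its persistence and treatment cannot be told apart. The CO B section had a fold in the tissue, spot clusters were harder to identify in DES B by the account of the study, and the blocks had been cored before sectioning. The DES blocks were checked for the presence of adenocarcinoma, and the study describes cancer regions in its DES spatial sample. In these sections, treatment and the presence of tumour cannot be told apart.

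VEGF-A signals mainly through KDR (VEGFR2), and FLT1 (VEGFR1) binds VEGF-A and VEGF-B with high affinity and acts largely as a decoy. VEGF-C acts on FLT4 (VEGFR3), which in the adult is mostly a receptor of lymphatic endothelium. Angiopoietin-1 activates TEK (TIE2) and steadies vessels, whereas angiopoietin-2 is made by remodelling endothelium and can oppose it. In the uterus these genes act in its blood and lymphatic vessels.

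In GRCm38 (mm10) coordinates, as GENCODE M21 annotates them, all 10 are protein-coding genes. The ligand genes were Vegfa (chr17:46016993-46032369, minus strand), Vegfb (chr19:6982473-6987651, minus strand) and Vegfc (chr8:54077606-54187096, plus strand). The receptor genes were Flt1 (chr5:147561604-147726011, minus strand), Kdr (chr5:75932827-75978458, minus strand), Flt4 (chr11:49609263-49652739, plus strand) and Tek (chr4:94739289-94874976, plus strand). The remaining members were Angpt1 (chr15:42424723-42676977, minus strand), Angpt2 (chr8:18690263-18741562, minus strand) and Gpihbp1 (chr15:75596628-75599481, plus strand). Both assays count the 3′ end of a transcript, so the splice forms of Vegfa and the soluble form of Flt1 were not separated.

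Flt1, Kdr and Tek were the receptors with the highest levels in the blood endothelial cells described below, and their promoters are shown for that reason. Each sequence is the 250 bases before the RefSeq start (GRCm38.p6), written 5′ to 3′ on the strand of the gene, with the ETS core GGAA or its reverse complement TTCC in capitals.
Flt1 (chr5:147726012-147726261, minus strand): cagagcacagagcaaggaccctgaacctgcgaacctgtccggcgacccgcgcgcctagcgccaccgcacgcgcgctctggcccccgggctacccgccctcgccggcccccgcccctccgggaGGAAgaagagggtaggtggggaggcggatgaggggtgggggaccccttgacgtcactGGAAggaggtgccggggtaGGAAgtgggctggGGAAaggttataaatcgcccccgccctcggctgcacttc
Kdr (chr5:75978456-75978705, minus strand): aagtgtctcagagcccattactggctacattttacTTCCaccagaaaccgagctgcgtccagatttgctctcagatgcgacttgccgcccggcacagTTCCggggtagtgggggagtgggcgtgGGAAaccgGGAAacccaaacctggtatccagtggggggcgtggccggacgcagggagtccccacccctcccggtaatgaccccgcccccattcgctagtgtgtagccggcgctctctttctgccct
Tek (chr4:94739039-94739288, plus strand): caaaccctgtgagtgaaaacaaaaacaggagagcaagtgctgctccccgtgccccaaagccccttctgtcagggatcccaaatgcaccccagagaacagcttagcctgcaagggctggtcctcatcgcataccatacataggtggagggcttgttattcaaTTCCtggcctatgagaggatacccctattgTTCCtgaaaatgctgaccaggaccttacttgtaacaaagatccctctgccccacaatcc

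The core occurred 4 times before Flt1, 4 times before Kdr and 2 times before Tek. It was present in 93.4% of all 32851 promoter windows of this length, with a median of 3 per window. Of the 10 members, 7 had an entry in the promoter table, and Angpt1, Angpt2 and Gpihbp1 did not.

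The sections held 1357 to 1834 spots and between 9117099 and 12506177 unique molecular identifiers (UMIs, counted molecules). Levels are given in CPM, the UMIs of a gene per 1000000 UMIs in a section, region, cluster or cell type, with 95% exact Poisson intervals that cover counting error only. A level of 3 UMIs in a whole section lay between 0.240 and 0.329 CPM. Log2 differences are on the TMM scale, which sets most genes to no change, and on the scale of CPM the median gene lay 0.21 higher in DES in whole sections, 0.067 in stromal spots, 0.32 in epithelium-rich spots and 0.22 in muscle-rich spots. In spots, fewer cells of a type and less RNA per cell cannot be told apart. Several tissue markers differed between the groups. All 5 of the muscle genes fell in DES (edgeR, 2.63% over all genes), and the 14 pan-endothelial genes summed to 381 and 591 CPM in the CO sections and 302 and 306 CPM in the DES sections.

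Vegfa is the main growth signal for blood vessels. Its level in whole sections was 29.4 (A) and 15.5 (B) CPM in CO and 13.2 (A) and 8.30 (B) CPM in DES. Both CO sections lay above both DES sections, but CO A was far above CO B. The difference on the log2 scale was -1.29 ± 0.41 (SE) and did not pass the test (edgeR quasi-likelihood, adjusted p = 0.147, n = 2 sections per group). Without CO B it was -1.70 with an adjusted p of 0.0229.

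**Figure D1:**
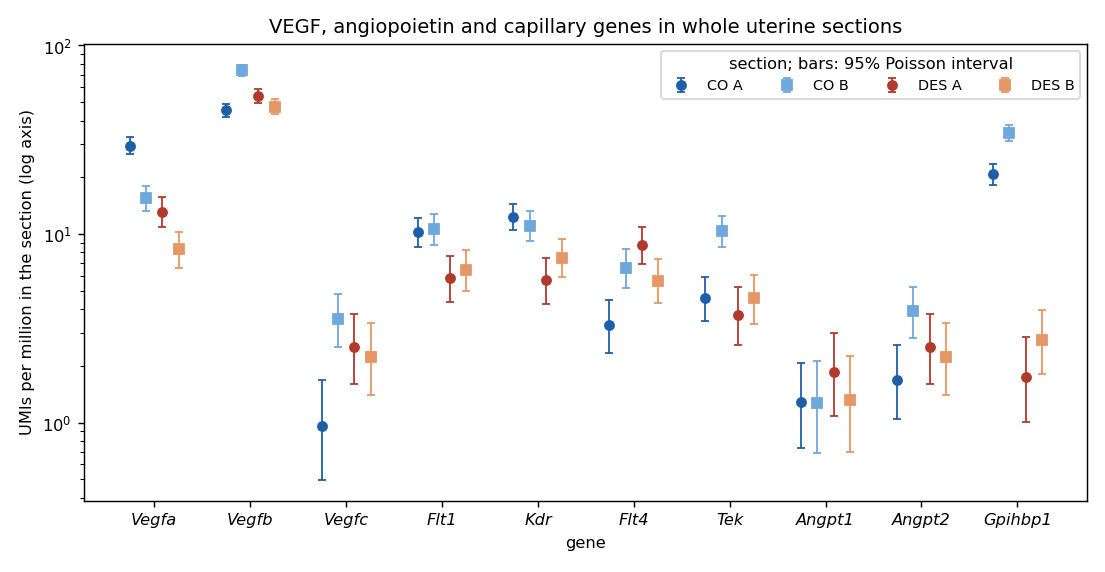
Level in CPM (log axis) of the 10 genes in the 2 CO and 2 DES sections, with 95% Poisson intervals. Gpihbp1 is at 20.7 and 34.4 CPM in CO against 1.75 and 2.73 CPM in DES, the widest gap among the 10, while Vegfc and Angpt2 overlap between the groups.

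Within epithelium-rich spots Vegfa fell in DES. These spots were the top 15% of each section by a score of epithelial genes. The levels were 32.3 and 16.8 CPM in CO A and B, against 3.99 and 2.87 CPM in DES A and B. The groups did not overlap, and the log2 difference was -3.15 ± 0.49 (edgeR quasi-likelihood, adjusted p = 0.0259). In the DES sections these values rest on 9 and 6 UMIs, and Vegfa passed the filter on low counts through its CO counts. Without DES A the adjusted p was 0.149 and without DES B it was 0.190, with differences of -3.37 and -2.96.

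The epithelium-rich spots of the 2 groups held similar sums of the 5 epithelial genes, 5128 and 3617 CPM in CO and 4624 and 5044 CPM in DES. They differed in basal keratin genes, which summed to 4.24 and 185 CPM in CO and to 9427 and 6575 CPM in DES. The 13 hypoxia-responsive genes summed to 3172 and 1530 CPM in CO and to 1032 and 897 CPM in DES. Of the 5 stromal genes, 1 was called lower in DES in these spots (edgeR, 2.89% over all genes) and none higher. Both CO sections lay above both DES sections for 4 of the 5 (14.2% over all genes), with a median log2 difference of -1.08. The part of these differences in the Vegfa result was not tested.

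Outside the epithelium Vegfa showed no such gap. In the stromal spots, the cluster that the study named as stroma in each section, it was at 50.1 and 26.0 CPM in CO and at 32.5 and 20.2 CPM in DES. That difference of -0.48 ± 0.45 did not pass (edgeR, adjusted p = 0.749), and the groups overlapped. In muscle-rich spots, the top 15% by muscle genes, the levels were 14.6 and 9.37 CPM in CO and 14.4 and 10.3 CPM in DES (log2 difference -0.20 ± 0.45, edgeR adjusted p = 0.895, and 0.022 with total UMIs in place of TMM). Whether the difference in epithelium-rich spots exceeds those in the other spots was not tested.

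Single cells gave Vegfa levels by annotated cell type. In CO, 20134 of 32387 cells had no cell type and are not ranked here. There was 1 library per condition, so the conditions could not be tested against each other and the intervals cover counting only. Among the annotated types of the CO library Vegfa was highest in stromal cells, at 97.7 CPM (92.2 to 104, 1326 cells). A group annotated Ctla2a followed at 69.9 CPM (60.4 to 80.4, 465 cells). Vegfa was at 18.5 CPM (17.6 to 19.5) in 2583 epithelial cells and at 3.42 CPM (1.57 to 6.50) in 341 endothelial cells. The DES library held 1 annotated stromal cell, so stromal Vegfa could not be compared.

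In DES epithelial cells Vegfa was at 4.30 CPM (4.0 to 4.62, 5255 cells), 4.30-fold below the CO epithelium. After each cell was thinned to 3000 UMIs, 4.96% of CO and 1.12% of DES epithelial cells held a Vegfa UMI, against 1.24% of CO endothelial cells. In DES mesothelial cells, at 3.51 CPM, the share was 1.11%, close to that of DES epithelial cells. A background share was not measured, and the ratio rests on the low DES epithelial level. Free RNA was present in both libraries, since the 4 red blood cell genes summed to between 589.8 and 2955 CPM in every annotated cell type, and no correction for it was made. The unthinned shares are larger in both libraries, because epithelial cells held a median of 23458 UMIs in CO and 21900 in DES.

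Every one of the 15 CO epithelial clusters held Vegfa at 5.79 CPM or more, with a median of 14.7 and a highest level of 48.1. The 16 DES clusters ran from 0.676 to 11.9 CPM with a median of 4.46. The ranges overlapped between 5.79 and 11.9 CPM. The highest CO clusters were cluster 3 at 48.1 CPM (42.1 to 54.6, 204 cells), cluster 13 at 39.3 CPM (27.4 to 54.7, 62 cells) and cluster 14 at 38.6 CPM (26.9 to 53.6, 28 cells), which do not differ beyond their intervals. The highest DES cluster was cluster 8 at 11.9 CPM (9.26 to 14.96, 203 cells). Clusters of 1 library are not replicates.

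**Figure D2:**
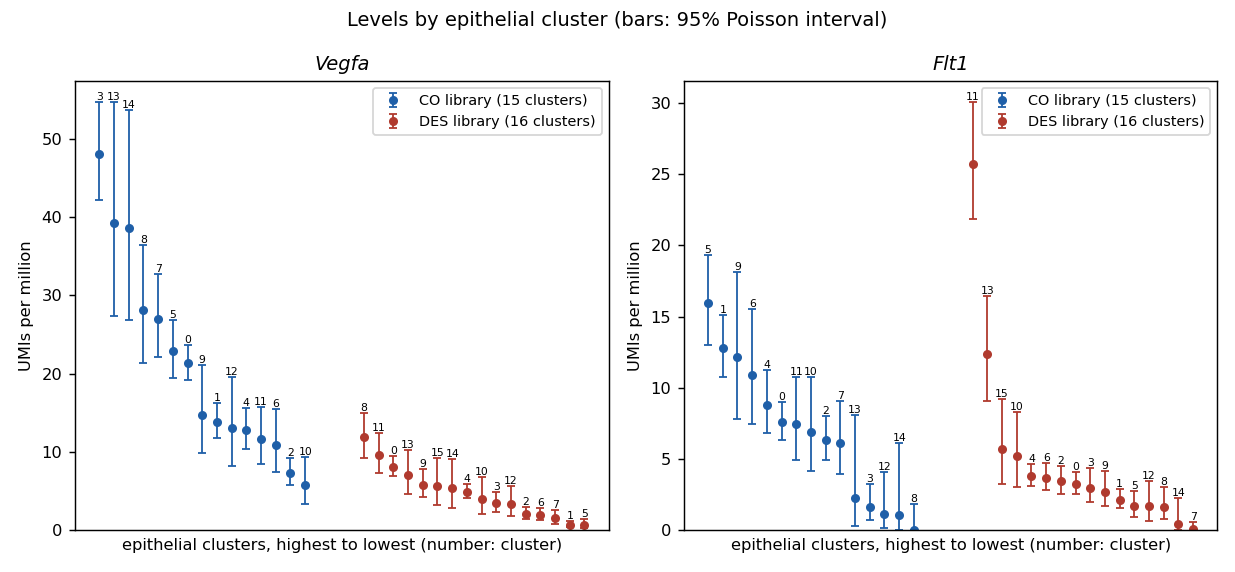
Level in CPM of Vegfa and Flt1 in the 15 CO and 16 DES epithelial clusters, ordered from highest to lowest, with 95% Poisson intervals and cluster numbers. Vegfa peaks at 48.1 CPM in CO and at 11.9 CPM in DES, whereas the highest Flt1 level, 25.7 CPM, is in DES cluster 11.

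Among the annotated types of the DES library the highest Vegfa levels were in immune cells. The group annotated DES-Myeloid-Lyz2hi was at 73.2 CPM (62.4 to 85.3, 136 cells) and lymphocytes were at 62.4 CPM (50.4 to 76.5, 239 cells), against 36.9 CPM (29.4 to 45.8) in CO lymphocytes. Cells labelled lymphocytes also held the 6 myeloid marker genes at a sum of 3494 CPM in CO and 8933 CPM in DES, above the 932 and 733 CPM of the 5 lymphocyte genes. DES mesothelial cells were at 3.51 CPM of Vegfa and CO mesothelial cells at 8.07 CPM.

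Vegfb, a ligand of FLT1 linked to fatty acid handling, did not pass the test in whole sections. The levels were 45.3 and 73.8 CPM in CO and 54.0 and 47.3 CPM in DES (log2 difference -0.44 ± 0.26, edgeR adjusted p = 0.379), and DES lay within the CO range. In muscle-rich spots the levels were 96.5 and 126 CPM in CO and 82.0 and 86.4 CPM in DES, a log2 difference of -0.62 ± 0.26 that did not pass (edgeR adjusted p = 0.320). Without CO A, the same difference was -0.84 with an adjusted p of 0.0114, and in whole sections it was -0.73 with an adjusted p of 0.0302.

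In epithelium-rich spots Vegfb was at 14.8 and 30.2 CPM in CO and at 38.6 and 35.8 CPM in DES. Its log2 difference there was 0.42 ± 0.36 (edgeR adjusted p = 0.509), and without CO B it was 0.99 with an adjusted p of 0.0356. In cells the epithelial levels were 7.46 CPM (6.87 to 8.09) in CO and 14.3 CPM (13.7 to 14.9) in DES, a DES to CO ratio of 1.91. In mesothelial cells they were 11.4 CPM (10.7 to 12.2) and 24.0 CPM (22.8 to 25.2). The library counts thus placed Vegfb higher, and Vegfa lower, in DES epithelial cells.

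Vegfc, the ligand of FLT4 in lymphatic growth, was sparse in tissue, with 12 and 39 UMIs in the CO sections and 23 and 22 in the DES sections. The levels of 0.960, 3.53, 2.52 and 2.23 CPM overlapped (log2 difference -0.11 ± 0.67, edgeR adjusted p = 0.947, and 0.089 with total UMIs in place of TMM). In cells it was concentrated in the cells annotated as mesothelial. These were at 41.9 CPM (40.5 to 43.3, 6866 cells) in CO and at 103 CPM (100.6 to 106, 3837 cells) in DES, a ratio of 2.46. Among cells thinned to 3000 UMIs, 11.4% of CO and 24.0% of DES mesothelial cells held a Vegfc UMI, against 0.234% and 0.115% of epithelial cells.

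The mesothelial label was checked against its markers. The 4 mesothelial genes summed to 2428 CPM in CO and 2451 CPM in DES mesothelial cells, against 56.9 CPM in CO stromal cells. The same cells held the 5 stromal genes at 17796 and 19031 CPM, above the 11622 CPM of the CO stromal cells, so the label rests on the mesothelial genes and not on a lack of stromal ones. A group of 22 cells annotated Stmn1-hi in CO carried Vegfc at 40.1 CPM (23.4 to 64.3) and the mesothelial genes at 2031 CPM.

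Kdr was also found in mesothelial cells. It was at 19.2 CPM (18.3 to 20.2) in CO and at 28.9 CPM (27.6 to 30.3) in DES mesothelial cells. Among mesothelial cells with a Kdr UMI, 4.84% in CO and 2.77% in DES held a UMI of Pecam1, Cdh5 or Emcn, against 3.61% and 1.38% of those without Kdr. The cells with Kdr were deeper, with medians of 14005 and 21963.5 UMIs against 9895 and 10228. There were 1110 Kdr UMIs per 100 Pecam1 UMIs in CO mesothelial cells and 2875 in DES ones, against 73.6 in CO endothelial cells. For Gpihbp1 there were 29.9 UMIs per 100 Pecam1 UMIs in CO mesothelial cells and 47.7 in CO endothelial cells.

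**Figure D3:**
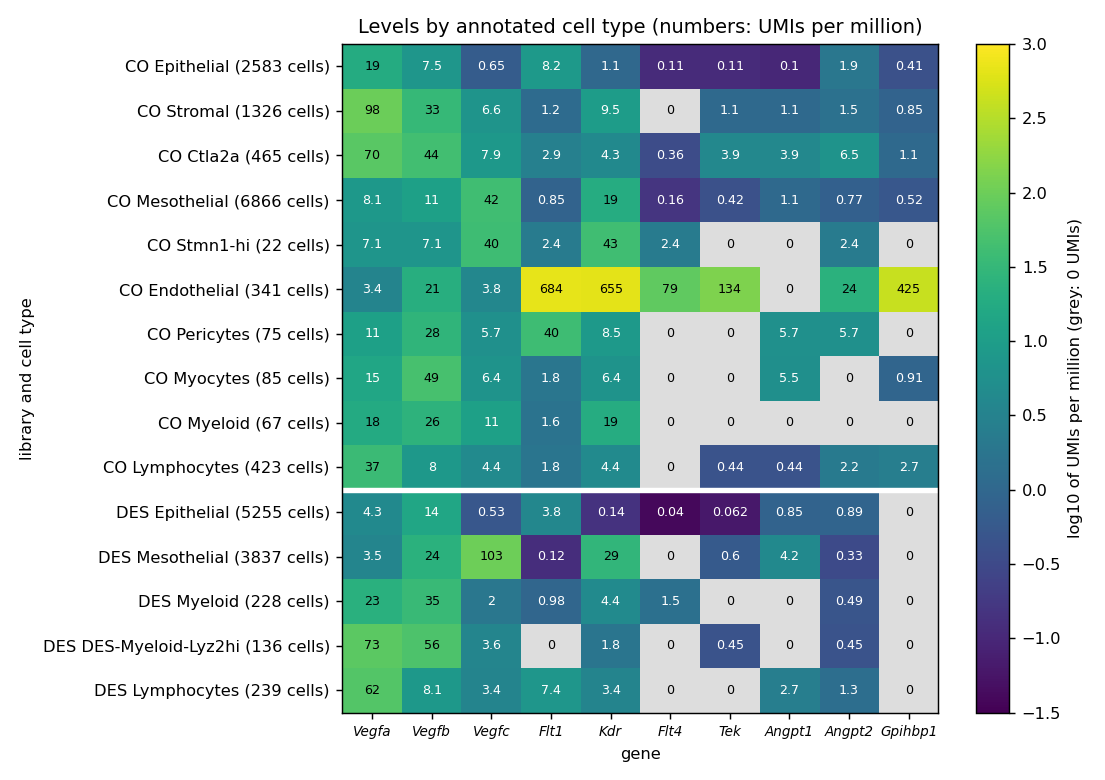
Level in CPM of each gene in each annotated cell type with 20 or more cells, coloured on a log10 scale, with 0 UMIs in grey and CO above the white line. Flt1, Kdr, Tek, Flt4 and Gpihbp1 centre on the 341 CO endothelial cells, Vegfc and Kdr also mark mesothelial cells, and Gpihbp1 is at 0 in each DES type shown.

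Among the CO cell types the receptor genes were highest in the endothelium. In 341 cells Flt1 was at 684 CPM (653 to 717), Kdr at 655 CPM (624 to 687), Tek at 134 CPM (120 to 149) and Flt4 at 78.7 CPM (68.4 to 90.2). Gpihbp1 was at 425 CPM (400 to 451). Cell types were formed from these same counts, so this is a description of the annotated cells. After thinning, 74.8% of endothelial cells held Flt1 and 46.9% held Gpihbp1, against 2.46% and 0.0390% of CO epithelial cells.

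Flt4 split this endothelium. Of the 341 cells, 28 held UMIs of 2 or more of the 5 lymphatic genes, and in these Flt4 was at 677 CPM (571 to 797) against 26.1 CPM (20.03 to 33.4) in the other 313. Flt1 ran the other way, at 23.5 CPM (7.64 to 54.9) against 742 CPM (708 to 778), and so did Gpihbp1, at 14.1 CPM (2.91 to 41.2) against 461 CPM (434 to 489). Kdr was at 602 CPM (502 to 716) and 660 CPM (628 to 693) in the 2 sets, which do not differ beyond counting. Angpt2 was higher in the lymphatic cells, at 132 CPM (87.5 to 190) against 14.1 CPM (9.74 to 19.7).

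Among the 313 other cells, 283 held a UMI of Flt1, 280 of Kdr and 255 of both. Tek was found in 189 of them, 170 together with Kdr. Gpihbp1 was found in 198, and 186 of those held Kdr. These shares are not thinned and depend on the depth of each cell. Most of these cells held Flt1 and most held Kdr, so large joint counts arise from the single ones, and whether the genes occurred together beyond that and beyond depth was not tested.

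The DES library yielded 5 annotated endothelial cells, of which 4 held 2 or more lymphatic genes. They gave 27 Kdr UMIs, 35 Flt4, 1 Flt1, 2 Tek and 3 Gpihbp1 UMIs, and the Flt4 level was 668 CPM (466 to 930). No blood endothelial level could be read from 1 remaining cell. Beyond the annotation, 506 of 20134 CO cells without a cell type (2.51%) and 42 of 6611 such DES cells (0.635%) held UMIs of 4 or more of the 14 pan-endothelial genes. The median depth of these unannotated cells was 4137.5 UMIs in CO and 2178 in DES. Of epithelial cells 1.94% in CO and 1.31% in DES met the same count, as did 1.86% and 2.81% of mesothelial cells. Both of these types were deeper. The count thus does not by itself identify endothelial cells.

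In whole sections Flt1, Kdr and Tek did not pass the test. Flt1 was at 10.2 and 10.6 CPM in CO and at 5.81 and 6.48 CPM in DES (log2 difference -0.97 ± 0.24, edgeR adjusted p = 0.0973). Kdr was at 12.3 and 11.1 CPM in CO and at 5.70 and 7.49 CPM in DES (-1.03 ± 0.28, edgeR adjusted p = 0.108). For both genes the groups did not overlap. In all, 5 of the 10 members had both CO sections above both DES sections in CPM, as did 17.9% of all genes tested, while 43.8% of all genes lay the other way. Tek was at 4.56 and 10.3 CPM in CO and at 3.73 and 4.55 CPM in DES (-1.04 ± 0.47, edgeR adjusted p = 0.261). CO A was level with DES B (4.558 against 4.555 CPM), and Tek is 1 of those 5 members only by that margin. Without CO A the Tek difference was -1.496.

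Set against the 14 pan-endothelial genes of the same section, these receptors did not separate the groups. Those genes are not confined to endothelium, as given with Gpihbp1 below, so the ratios are not per endothelial RNA alone. There were 26.9 and 17.9 Flt1 UMIs per 1000 pan-endothelial UMIs in CO and 19.2 and 21.1 in DES. For Kdr the values were 32.3 and 18.7 in CO and 18.9 and 24.4 in DES. For Tek they were 12.0 and 17.5 in CO and 12.3 and 14.9 in DES. The DES values of all 3 lay within the CO range, and an exact two-sided permutation of 4 sections gave p = 1.00 for each, where the smallest p it can give is 0.333.

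Flt4 in whole sections was at 3.28 and 6.62 CPM in CO and at 8.77 and 5.67 CPM in DES (log2 difference 0.34 ± 0.44, edgeR adjusted p = 0.697), and the groups overlapped. Without CO A the difference was -0.07. Per 1000 pan-endothelial UMIs it was at 8.60 and 11.2 in CO and at 29.0 and 18.5 in DES, without overlap, at the smallest p the exact permutation allows (0.333).

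In muscle-rich spots Flt4 rose in DES. It was at 4.68 and 5.85 CPM in CO (8 and 10 UMIs) and at 36.0 and 24.7 CPM in DES (25 and 24 UMIs). The log2 difference was 2.27 ± 0.42 (edgeR, adjusted p = 0.0463), and Flt4 passed the filter on low counts through its DES counts. DESeq2 gave an adjusted p of 0.113, leaving out DES A gave 0.163 and leaving out DES B gave 0.0573. Of the 6 members tested in these spots, Flt4 alone passed, where 1.09% of all 9898 genes tested were higher in DES.

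The muscle-rich spots of DES were not the same tissue as those of CO. The 5 muscle genes summed to 50157 and 51398 CPM there in CO and to 26621 and 21667 CPM in DES. The 5 lymphatic genes summed to 183 and 129 CPM in CO and to 1519 and 886 CPM in DES, and the 14 pan-endothelial genes to 394 and 477 CPM and to 1080 and 820 CPM. In DES B, 50 of the 204 muscle-rich spots also belonged to the stromal cluster. The part of these shifts in the Flt4 result was not tested. In the same spots Kdr was at 15.8 and 4.68 CPM in CO and at 18.7 and 22.6 CPM in DES (log2 difference 0.81 ± 0.55, edgeR adjusted p = 0.567), and without CO A its difference was 1.88 with an adjusted p of 0.0381. Tek was at 5.26 and 4.68 CPM in CO and at 23.0 and 12.3 CPM in DES (1.56 ± 0.50, edgeR adjusted p = 0.181).

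Of the spot clusters with 20 or more spots, the 2 with the most pan-endothelial RNA were both in DES. Cluster 7 of DES A (80 spots) held Flt4 at 150 CPM and Kdr at 55.0 CPM, and cluster 10 of DES B (44 spots) held both at 87.4 CPM. Their lymphatic genes summed to 5118 and 2703 CPM. In CO the highest Flt4 levels were 24.997 CPM in CO A (cluster 6) and 36.4 CPM in CO B (cluster 3), where the lymphatic genes summed to 1273 and 770 CPM. Gpihbp1 in those DES clusters was at 20.01 and 10.9 CPM.

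Flt1 was also found in epithelium. It was at 8.25 CPM (7.63 to 8.91) in CO epithelial cells and at 3.81 CPM (3.53 to 4.11) in DES ones. There were 374 Flt1 UMIs per 100 Pecam1 UMIs in CO epithelial cells and 339 in DES ones, against 76.8 in CO endothelial cells. Of the epithelial cells with Flt1, 12.6% in CO and 11.8% in DES held Pecam1, Cdh5 or Emcn, against 8.0% and 4.32% of those without it. Here too the cells with Flt1 were deeper, with medians of 38131 and 49230.5 UMIs against 22020.5 and 20472. The level varied among clusters, from 0 to 15.9 CPM in CO, and in DES from 0.109 to 25.7 CPM, the last in cluster 11 (21.8 to 30.0, 162 cells). CO pericytes held Flt1 at 39.7 CPM (14 UMIs in 75 cells).

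The angiopoietins gave few UMIs in tissue, 13 to 17 UMIs of Angpt1 and 21 to 43 of Angpt2 per section. Angpt1 was at 1.28 and 1.27 CPM in CO and at 1.86 and 1.32 CPM in DES (log2 difference 0.10 ± 0.46, edgeR adjusted p = 0.925), with both DES sections above both CO sections and overlapping counting intervals. Angpt2 was at 1.68 and 3.90 CPM in CO and at 2.52 and 2.23 CPM in DES (-0.43 ± 0.52, edgeR adjusted p = 0.677). Neither passed the test.

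In cells Angpt1 gave 0 UMIs in the 341 CO endothelial cells (up to 1.40 CPM). That limit lies above the CO epithelial and mesothelial levels that follow, so the count does not place the endothelium below them. The count was 8 UMIs in 2583 CO epithelial cells and 150 in 5255 DES epithelial cells, or 0.102 CPM (0.0438 to 0.20) and 0.851 CPM (0.721 to 0.999). In mesothelial cells it was at 1.07 CPM (0.860 to 1.32) in CO and 4.24 CPM (3.75 to 4.77) in DES. These levels are low, and fewer than 2% of the cells of either type thinned to 3000 UMIs held a UMI in either library. Thinned to 5000 UMIs, 5.56% of CO pericytes and 3.61% of CO myocytes held one, in groups of 75 and 85 cells before thinning. At that depth 0.598% of CO and 2.30% of DES mesothelial cells held one. The pericytes had a median of 3920 UMIs, so most of the 75 were left out at 5000 and their share rests on very few cells.

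Angpt2 in epithelium centred on a few clusters. CO epithelial cluster 3 was at 11.3 CPM (8.48 to 14.6) and cluster 8 at 7.90 CPM (4.52 to 12.8), against a median of 1.27 CPM over the 15 CO clusters. DES cluster 7 was at 5.91 CPM (4.44 to 7.71), against a median of 0.502 CPM over 16. CO cluster 3 also had the highest Vegfa point estimate, which did not differ beyond counting from the next CO clusters, as given above.

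Gpihbp1 had the widest gap between CO and DES of the 10 genes. In whole sections there were 259 and 380 UMIs in CO and 16 and 27 in DES, or 20.7 and 34.4 CPM against 1.75 and 2.73 CPM. It was found in 12.8% and 14.2% of CO spots and in 0.952% and 1.84% of DES spots. Gpihbp1 fell by 3.80 ± 0.40 on the log2 scale, a 13.96-fold difference (edgeR quasi-likelihood, adjusted p = 0.0212, n = 2 sections per group). It was the only 1 of the 10 members, all of which were tested, to pass in whole sections, where 2.63% of 14098 genes were lower in DES and 2.67% higher. With total UMIs in place of TMM the 371 lower and 376 higher genes became 263 and 522, and Gpihbp1 was at -3.61 with an adjusted p of 0.0238. Leaving out DES A gave an adjusted p of 0.0915 and leaving out DES B gave 0.0819, with differences of -3.51 and -4.21.

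By point estimate the gap was widest in the stromal spots. The counting interval of the ratio there, given below, overlapped that of epithelium-rich spots (4.93 to 30.9). The regions were not tested against each other. Stromal spots were at 85.9 and 124 CPM in CO (48 and 114 UMIs) and at 1.97 and 2.89 CPM in DES (2 and 1 UMIs). Gpihbp1 fell by 5.55 ± 0.54 on the log2 scale (edgeR, adjusted p = 0.0102). The 162 CO against 3 DES UMIs give a ratio of 49.7 with a counting interval of 16.7 to 243. It was 1 of 5 members tested there and the only one to pass, where 0.673% of 8914 genes were lower in DES, and it passed the filter on its CO counts. Leaving out DES A gave an adjusted p of 0.0524, and stromal spots chosen by a marker score instead gave -4.81 with an adjusted p of 0.0535.

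The stromal spots of DES also held other RNA. The 5 stromal genes summed to 5452 and 4056 CPM in CO and to 2890 and 1923 CPM in DES, and the basal keratin genes to 0 and 90.0 CPM and to 7058 and 1998 CPM. The muscle genes summed to 888 and 700.2 CPM in CO and to 2705 and 8369 CPM in DES, and the lymphatic genes to 1.79 and 66.1 CPM and to 763 and 101.04 CPM. Gpihbp1 was low in CO muscle-rich spots and in CO endothelial cells with lymphatic genes, and the part of these shifts in the stromal result was not tested. The pan-endothelial genes summed to 858 and 1217 CPM in CO and to 474 and 961 CPM in DES. Per 1000 pan-endothelial UMIs there were 100 and 102 Gpihbp1 UMIs in CO and 4.16 and 3.003 in DES. In the same spots Flt1 was at 35.8 and 36.9 CPM in CO and at 16.7 and 26.0 CPM in DES (log2 difference -0.92 ± 0.43, edgeR adjusted p = 0.417). Kdr was at 37.6 and 26.0 CPM in CO and at 9.85 and 28.9 CPM in DES (-0.97 ± 0.59, edgeR adjusted p = 0.550).

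**Figure D4:**
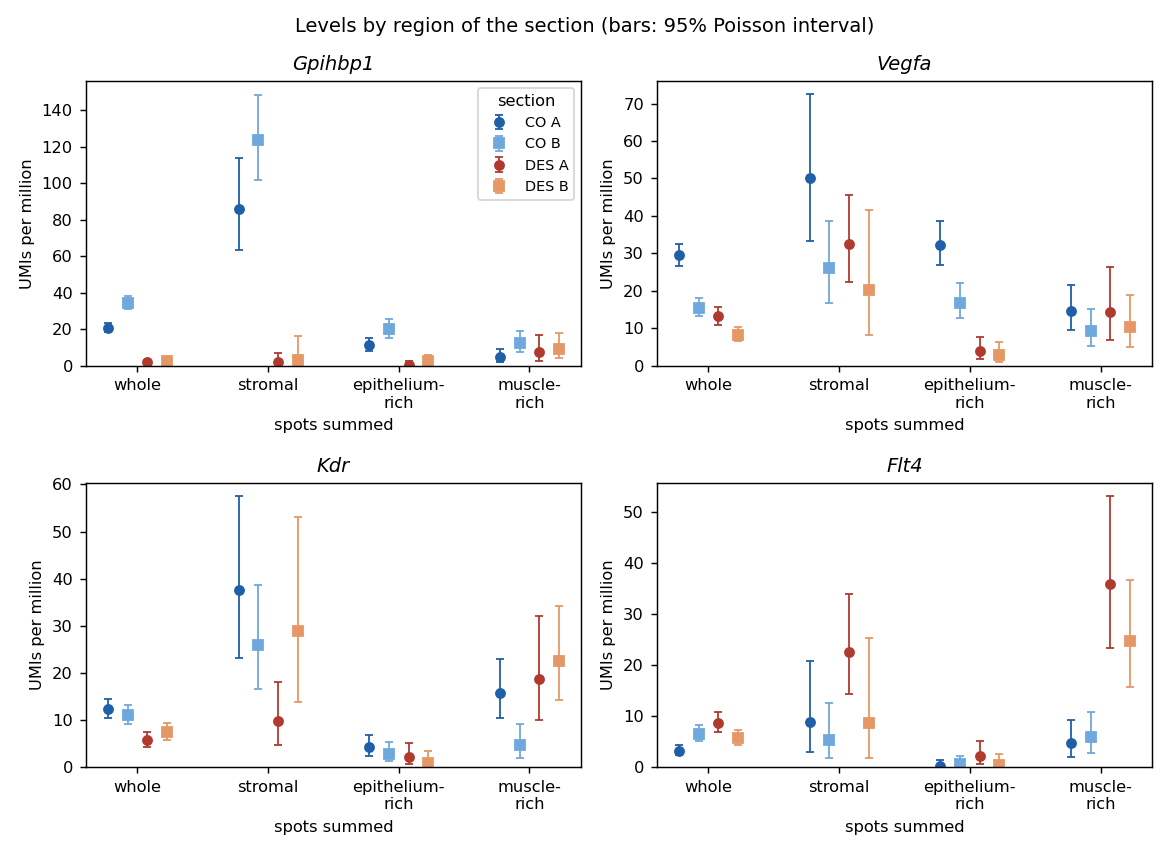
Level in CPM of Gpihbp1, Vegfa, Kdr and Flt4 in whole sections and in stromal, epithelium-rich and muscle-rich spots of the 4 sections, with 95% Poisson intervals. Gpihbp1 stands at 85.9 and 124 CPM in CO stromal spots and near 0 in DES ones, Vegfa separates in epithelium-rich spots, and Flt4 is highest in DES muscle-rich spots.

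In epithelium-rich spots Gpihbp1 was at 11.4 and 20.02 CPM in CO and at 0.444 and 2.39 CPM in DES (1 and 5 UMIs). It fell by 3.75 ± 0.69 on the log2 scale (edgeR, adjusted p = 0.0350), with a counting ratio of 11.1 (4.93 to 30.9). It too passed the filter on low counts through its CO counts. Gpihbp1 and Vegfa were 2 of the 3 members tested there and both were lower, where 2.89% of 11520 genes were lower in DES. Leaving out DES A or DES B gave adjusted p of 0.179 and 0.104, and the top 10% of spots gave -3.05 with an adjusted p of 0.0681.

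In muscle-rich spots Gpihbp1 was at 4.68 and 12.3 CPM in CO and at 7.20 and 9.26 CPM in DES, a log2 difference of -0.24 ± 0.61 (95% interval -1.66 to 1.18, edgeR adjusted p = 0.907). The groups overlapped in CPM. Per 1000 pan-endothelial UMIs, which were more abundant in these spots in DES, there were 11.9 and 25.8 Gpihbp1 UMIs in CO and 6.67 and 11.3 in DES, a ratio of means of 2.10 without overlap, at the smallest p the exact permutation allows (0.333). These spots held 31.2% and 33.3% of the Gpihbp1 UMIs of the DES sections, 5 and 9 UMIs, and 3.09% and 5.53% of those of CO. Whether the difference depends on the region was not tested.

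Over whole sections Gpihbp1 was also set against the summed pan-endothelial genes. Per 1000 pan-endothelial UMIs there were 54.4 (47.8 to 61.6) and 58.3 (52.4 to 64.6) Gpihbp1 UMIs in CO and 5.81 (3.31 to 9.44) and 8.92 (5.87 to 13.0) in DES, a ratio of means of 7.65. The groups did not overlap, at the smallest p the exact permutation of 4 sections allows (0.333). The pan-endothelial genes take in blood and lymphatic vessels and are not confined to endothelium. In single cells they summed to 6870 CPM in CO endothelial cells, and to 110 CPM in CO and 225 CPM in DES epithelial cells. In mesothelial cells they summed to 232 CPM in CO and 218 CPM in DES. The part of this other RNA in the ratio was not tested. The lymphatic genes summed to 109 and 114 CPM in CO and to 288 and 155 CPM in DES, and the part of that shift in the ratio was not tested. Over the spot clusters with 20 or more spots, the ratio of Gpihbp1 to summed pan-endothelial CPM, per 1000, ran from 6.39 to 153 with a median of 36.5 in the 19 CO clusters. It ran from 0 to 20.6 with a median of 6.93 in the 18 DES clusters. Among the smaller clusters, cluster 9 of DES A (9 spots, 2 Gpihbp1 UMIs) was at 64.5 and cluster 10 of CO B (17 spots, 5 UMIs) at 116.

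**Figure D5:**
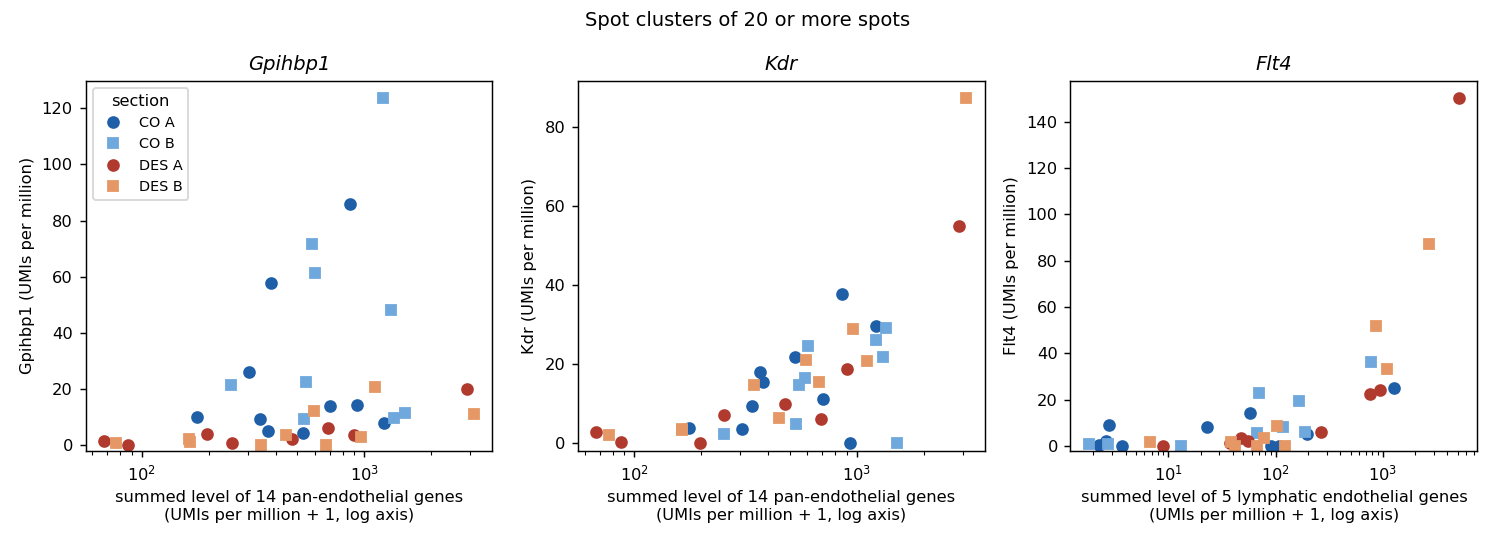
Gpihbp1 and Kdr against the summed level of 14 pan-endothelial genes, and Flt4 against that of 5 lymphatic genes, in the spot clusters with 20 or more spots (CPM, log horizontal axes). Kdr and Flt4 tend to climb with these sums, and Gpihbp1 shows no steady climb in CO. It is at 57.7 CPM in cluster 3 of CO A, at a sum of 378 CPM, and at 7.81 CPM in cluster 6, at 1222 CPM. Gpihbp1 stays at or below 20.6 CPM in every DES cluster shown and reaches 124 CPM in CO.

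In single cells Gpihbp1 gave 1117 UMIs in CO endothelial cells and 957 in CO cells without a cell type. In DES it gave 3 UMIs in endothelial cells, all of them in 1 cell with lymphatic genes, and 0 in the 5255 epithelial, 3837 mesothelial and 6611 unannotated cells. CO epithelial and mesothelial cells held 32 and 43 UMIs. The unannotated DES cells gave 63 Flt1 and 74 Pecam1 UMIs, and the unannotated CO cells gave 2277 of each. With so few annotated blood endothelial cells from DES and 1 library per condition, whether Gpihbp1 was lower per cell was not tested.

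Patterns over the 40 spot clusters were described by correlation of log2(CPM + 10) after each section's mean was subtracted. Clusters of a section share a library and differ in size and depth, so the coefficients carry no test. The genes most like Kdr were Gimap6 (r = 0.86), Emcn (0.81), Qpct (0.78), Gimap1 (0.78) and Hspa12b (0.76). Those most like Flt4 were Gucy1a3 (0.90), Vtn (0.86), Cldn5 (0.84), Hspa12b (0.83) and Ccl21a (0.83), where Ccl21a is a chemokine of lymphatic endothelium. Those most like Gpihbp1 were Stard5 (0.75), Heg1 (0.73), Ntrk2 (0.72), S1pr1 (0.71) and Crtac1 (0.70).

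For Angpt1 the nearest genes were Nnmt (0.88), Scd1 (0.85), Car3 (0.82), Nnat (0.81) and Adipoq (0.80), of which Scd1, Car3 and Adipoq are fat-cell genes. Cluster 9 of DES A, with 9 spots, held a single Angpt1 UMI and the adipocyte genes at 26013 CPM, and the correlations were not recomputed without it. For Vegfa the nearest were Ppil2 (0.75), Pth1r (0.67), Acp2 (0.66), Zfpm1 (0.65) and Wdr3 (0.64). Both lists come from sparse counts.

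Other genes of the pathway were read in whole sections. Of 21 listed genes in the table, 19 were tested, 2 fell and none rose, beside 2.63% of all genes lower and 2.67% higher, with a median log2 difference of -0.45 against -0.01 over all genes. Angptl4, an inhibitor of lipoprotein lipase, was at 125 and 104 CPM in CO and at 28.1 and 23.3 CPM in DES (log2 difference -2.37 ± 0.20, edgeR adjusted p = 0.0202). Dll4, the Notch ligand of tip cells, was at 19.6 and 21.1 CPM in CO and at 5.92 and 4.76 CPM in DES (-2.14 ± 0.22, edgeR adjusted p = 0.0212). At an unadjusted p under 0.05 there were 7, where 24.4% of all genes tested were.

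Of the 13 other capillary genes, 10 were tested and 1 fell (2.63% over all genes), with a median of -0.39. The list is not specific to capillaries in these cells. Its sum was 15742 CPM in DES-Myeloid-Lyz2hi cells, led by Fabp5, Fabp4 and Lpl, against 2674 CPM in CO endothelial cells. The 6 myeloid genes summed to 425 and 827 CPM in the CO sections and to 2288 and 1335 CPM in the DES sections, and their part in the list was not tested. The gene that fell was Ly6c1, a surface marker of capillary endothelium among other cells, at 82.1 and 117 CPM in CO and at 37.1 and 34.8 CPM in DES (-1.68 ± 0.22, edgeR adjusted p = 0.0285). Lpl, the lipase that GPIHBP1 carries, was at 36.0 and 33.2 CPM in CO and at 79.0 and 25.8 CPM in DES and did not pass (edgeR adjusted p = 0.713). It was named after its values were seen.

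Of the 14 pan-endothelial genes, all tested, 1 fell (2.63% over all genes) and 11 had both CO sections above both DES sections, as did 17.9% of all genes tested. Their median was -1.05. The one that passed was Ecscr, an endothelial surface protein, at 45.6 and 54.2 CPM in CO and at 18.5 and 15.7 CPM in DES (-1.75 ± 0.18, edgeR adjusted p = 0.0212). None of the 4 lymphatic genes tested passed. Ccl21a was at 91.2 and 98.2 CPM in CO and at 262 and 133 CPM in DES (edgeR adjusted p = 0.205), and Lyve1 was at 9.60 and 5.89 CPM and at 9.43 and 8.20 CPM (edgeR adjusted p = 0.968).

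Of the 8 pericyte genes 4 fell and 1 rose (2.63% and 2.67% over all genes), with a median of -1.38. Kcnj8, an ATP-sensitive potassium channel subunit, differed by -2.17 ± 0.33, Higd1b by -2.02 ± 0.22 and Rgs5, a regulator of G-protein signalling, by -1.79 ± 0.20 (edgeR adjusted p = 0.0360, 0.0219 and 0.0229). Notch3, a Notch receptor listed here with the pericyte genes, was higher in DES by 1.58 ± 0.26 (edgeR adjusted p = 0.0402). It was at 14.6 and 22.5 CPM in CO and at 71.2 and 56.9 CPM in DES. The list therefore did not move in 1 direction, and which cells of the sections carried Notch3 was not tested.

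Of the 13 hypoxia-responsive genes, all tested, 3 fell and none rose (2.63% and 2.67% over all genes), with a median of -1.05. Ankrd37 was at 87.0 and 43.4 CPM in CO and at 6.91 and 5.97 CPM in DES (-3.56 ± 0.42, edgeR adjusted p = 0.0246). Bnip3, a mitophagy receptor, differed by -1.74 ± 0.21 and Ndrg1 by -1.48 ± 0.17 (edgeR adjusted p = 0.0268 and 0.0247). The summed list was at 2203 and 1091 CPM in CO A and B and at 973 and 826 CPM in DES A and B. Vegfa had the same order of sections, and a link between the list and Vegfa was not tested.

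The remaining lists mark other cell types. All 5 muscle genes and 1 of 5 stromal genes (Dcn) fell, and 1 of 3 mesothelial genes tested (Upk3b) and 1 of 5 lymphocyte genes (Cd79a) rose, beside 2.63% of all genes lower and 2.67% higher. Upk3b was also a leading gene of cluster 1 of DES B, where the epithelial genes summed to 3655 CPM and the basal keratin genes to 8454 CPM. None of the 6 adipocyte, 5 epithelial, 3 basal keratin, 6 myeloid and 4 red blood cell genes tested passed with edgeR. This does not show that these lists were alike. The basal keratin genes summed to 3.36 and 160 CPM in CO and to 9526 and 5644 CPM in DES, with a median log2 difference of 6.36. The adipocyte genes summed to 106 and 179.6 CPM in CO and to 180.4 and 143 CPM in DES, with a median of 0.65. At an unadjusted p under 0.05 there were 3, 1, 3, 1 and 0 of them, where 24.4% of all genes tested were.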

How the data were processed

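Single-cell libraries and Visium sections were processed by the authors with Cell Ranger 3.0.1 and Space Ranger 1.2.2 against mm10. The deposited values are raw counts of UMIs per gene and cell or spot, and the deposited metadata give cell types, epithelial clusters and spot clusters. Of 49049 cells in the metadata 350 had no counts. The 2 libraries shared 180 barcodes, 32 of them annotated in both. Doublets were not called again.

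Counts were summed per cell type, cluster, section or region. DES and CO sections were compared with edgeR 4.0.16 (quasi-likelihood test, TMM, filterByExpr, Benjamini-Hochberg adjustment, threshold 0.05) over all genes passing the filter. Log2 differences are on the TMM scale. SE is the log2 difference divided by the square root of the F statistic, and intervals use the t quantile at the degrees of freedom of the test. Single cells, with 1 library per condition, received no test. Shares of cells were computed after thinning to 3000 UMIs, with Clopper-Pearson intervals. The fit was also run on simulated counts with the same dispersion for every gene. That setting is simpler than these data and does not show how the fit performs on them. No column of per-sample values was left unused.

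The members and gene lists were chosen with earlier results of these data known. From each list, up to 4 genes past the threshold in whole sections were named by size of difference, or the 2 most abundant if none passed; the 5 genes most like a member had a mean of at least 10 CPM over clusters. Alternatives were DESeq2 1.42.0, its size factors, total UMIs in place of TMM, no filter, each section left out, a replicate block and other spot choices.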

Additional observations from a re-analysis of the deposited data

How the results depend on the processing

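Over the settings tried, 216 of the members' log2 differences kept their direction and side of the threshold, 13 lost their call, 6 gained one and 12 changed sign. The 5 called differences kept their sign throughout: Gpihbp1 ran from -4.21 to -3.42 in whole sections, from -5.82 to -4.81 in stromal spots and from -5.33 to -2.96 in epithelium-rich spots, Vegfa from -3.54 to -2.56 in epithelium-rich spots and Flt4 from 2.01 to 2.52 in muscle-rich spots. Each lost its call without DES A, and all but stromal Gpihbp1 also without DES B. With the top 10% of spots, Flt4 had an adjusted p of 0.0696 (edgeR).

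Counts of called genes moved more. Whole sections gave 747 and DESeq2 1761. In muscle-rich spots 108 genes were higher and 58 lower in DES, and with DESeq2 120 and 114. Without a filter, stromal spots gave 714 in place of 131, epithelium-rich spots 1666 in place of 864 and muscle-rich spots 825 in place of 166. Stromal spots chosen by marker score gave 49, and muscle-rich spots gave 78 at the top 10% and 781 at the top 25%. Leaving out 1 section gave 3 (without DES B) to 2819 (without CO A) genes in whole sections, 40 (without DES A) to 357 (without CO A) in stromal spots, 0 (without DES B) to 2298 (without CO B) in epithelium-rich spots and 80 (without DES B) to 1316 (without CO B) in muscle-rich spots. A lone section is assumed to vary like the other group. The causes were not tested. Total UMIs in place of TMM, added after seeing the data, gave 522 higher and 263 lower genes in whole sections, 988 and 223 in epithelium-rich spots (531 and 333 with TMM) and 146 and 31 in muscle-rich spots. All 5 called differences passed, and whole-section Vegfc became 0.089 and muscle-rich Vegfa 0.022.

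With the letter as a replicate block, stromal spots gave 453 genes, muscle-rich spots 257, and Vegfc in whole sections 0.088. The block changed no other call of a member. Deviations of same-letter sections correlated at 0.0111, 0.0808, 0.0482 and -0.0487 in whole sections, stromal, epithelium-rich and muscle-rich spots. The labels do not say what the letters mark, and with so few sections these correlations cannot settle it.

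Leaving out 1 section turned the sign of low or overlapping members: whole-section Vegfc ran from -0.76 to 1.06, Flt4 from -0.067 to 0.90, Angpt1 from -0.14 to 0.29 and Angpt2 from -0.90 to 0.26, stromal Vegfb from -0.13 to 0.49 and muscle-rich Vegfa from -0.47 to 0.11 (0.03 without DES B). Stromal Vegfb was -0.27 by marker score and muscle-rich Vegfa 0.046 at the top 25%.

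In cells, totals without the 20 most abundant genes gave, for CO and DES, epithelial Vegfa 22.2 and 5.29 CPM, mesothelial Vegfc 49.4 and 122 CPM and mesothelial Kdr 22.7 and 34.1 CPM. Means over cells gave 39.4 and 99.7 CPM of Vegfc and 17.9 and 26.8 CPM of Kdr. Shares of cells follow depth, and 110 of 280 moved without thinning or at 5000 UMIs. At 5000 UMIs Vegfa was found in 8.59% and 1.91% of epithelial cells and Vegfc in 17.4% and 35.4% of mesothelial cells (CO and DES), in the same order as at 3000, and in CO endothelium Flt1 in 87.8% and Gpihbp1 in 54.5%. Leaving out barcodes shared by both libraries was added after seeing the data, and all 140 values stayed within their counting intervals. Vegfc, Angpt1 and Angpt2 rest on 12 to 43 UMIs per section, and what change could be detected at that depth was not tested.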
